A study of Mus musculus with 9 samples.

Results

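Macrophages degrade the extracellular matrix with secreted and membrane-bound proteases and restrain that activity with inhibitors. The transcripts of 10 such genes were followed here in bone marrow-derived macrophages (BMDMs) exposed to medium conditioned by adventitial fibroblasts, out of 53465 genes in the count table. They were chosen by symbol: the matrix metalloproteinases Mmp8, Mmp9, Mmp12, Mmp14 and Mmp19, the membrane-anchored metalloproteinase Adam8, the tissue inhibitors of metalloproteinases Timp1, Timp2 and Timp3, and the serine protease inhibitor Slpi. Each symbol stood on 1 row, and all 10 passed the filter on low counts that kept 11950 genes for testing, namely a level above 1 CPM (read count scaled to the size of the library) in at least 3 libraries. The 9 libraries came in 3 groups of 3, which were BMDMs left untreated (UNX), BMDMs given medium from fibroblasts of control calves (CO-CM), and BMDMs given medium from fibroblasts of calves with pulmonary hypertension (PH-CM).

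All cells were grown from marrow of male wild-type C57BL/6 mice (C57bl6/J in the methods of the study) with CSF1, the macrophage growth factor, at 50 ng/ml. The age of the mice was not given in the sources used here. For the length of exposure the growth protocol of the labels gives 16 h and the treatment protocol 24 h, and the methods of the study give a time between them. The fibroblasts were bovine, came from the adventitia (the outer coat) of the pulmonary artery, and their media were pooled within each kind. The replicates therefore repeat the macrophage culture and not the calf, and p-values measure the spread between these cultures only. The untreated cells received no fibroblast medium of any kind.

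Matrix metalloproteinases (MMPs) are zinc proteases made as inactive precursors, which are cleaved into active enzymes outside the cell or at its surface. TIMPs block the active site of MMPs, and of some ADAM and ADAMTS proteases, by binding it directly. Neutrophils store Mmp8 and Mmp9 in granules, whereas Mmp12 is typical of macrophages. In the pulmonary artery, breakdown of elastin and collagen accompanies the thickening of the vessel wall in pulmonary hypertension.

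Libraries held between 62017933 and 84314201 reads on genes. Most low counts were even, between 81.4% and 83.8% of the counts from 1 to 19 in each library, so both mates of a pair were taken to be counted and fragments are fewer than reads. The counting options listed in the methods of the study hold none for read pairs, which by default counts each mate. All 10 genes of the macrophage list were detected above the filter, with Lyz2 and Cd68 among them. Their summed level was 12944 to 13817 CPM in UNX, 19834 to 20825 CPM in CO-CM and 22560 to 24606 CPM in PH-CM. This sum mostly followed Lyz2, at means of 7251, 12814 and 15204 CPM. Adgre1, Csf1r, Cd68 and Mertk were also higher on average in both treated groups than in UNX. Cd14, C1qa, C1qb, Fcgr1 and Itgam were lower in CO-CM than in UNX, and C1qa was lower in PH-CM too. The neutrophil list (14 genes) had 2 above the filter, Csf3r and S100a8, while Ly6g had 0 reads and Elane, Mpo and Ngp stayed under 1 CPM on average in every group. Its summed level was 7.84 to 11.7 CPM in UNX, 56.9 to 75.2 CPM in CO-CM and 27.1 to 38.8 CPM in PH-CM. These sums followed Csf3r, the receptor for G-CSF, at means of 6.87, 61.8 and 31.2 CPM, and S100a8, at 0.953, 2.49 and 2.47 CPM. Ltf, Ngp, S100a9 and Cxcr2 went the other way, with Ltf at means of 0.427, 0.361 and 0.0936 CPM and Ngp at 0.628, 0.599 and 0.274 CPM in UNX, CO-CM and PH-CM. Prtn3, with 81 reads in all, rose in the same group order, at means of 0.0534, 0.121 and 0.230 CPM. The fibroblast list held 11 genes, 9 above the filter, with Thy1 and Lum under 1 CPM. Its sum was 336 to 414 CPM in UNX, 450 to 499 CPM in CO-CM and 427 to 543 CPM in PH-CM. In this group order Fn1 had means of 133, 164 and 165 CPM and Col1a1 of 115, 146 and 148 CPM. Col1a2 had 75.9, 109 and 104 CPM, and Col3a1 had 17.8, 21.5 and 35.5 CPM. Each gene of this list was higher on average in PH-CM than in UNX, while Col6a3, Lum and Thy1 were lower in CO-CM. The part of fibroblasts in the changes of the 10 genes was not tested. Lists for lymphocytes and for mast cells and basophils stayed at or below 3.34 CPM in sum in every library. In bulk libraries a lower level can reflect fewer cells of a type or less RNA per cell, and these cannot be told apart.

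PH-CM changed all 10 genes against UNX, with 8 higher and 2 lower. A gene was called at a false discovery rate (FDR, the Benjamini-Hochberg adjusted p of the edgeR quasi-likelihood test over all 11950 genes) not above 0.05 if its level also differed by 1.2-fold or more. By this rule 63.0% of all genes tested were called, 31.3% as higher and 31.7% as lower. In the 10 genes the 3 PH-CM libraries lay entirely above or below the 3 UNX libraries, as they did in 77.7% of all genes tested. Slpi passed the filter on low counts only through its level in PH-CM, so its call there adds nothing to the count. The median log2 fold change was 1.17 over the 10 genes and 0.01 over all genes.

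CO-CM changed 7 of the 10 genes against UNX, with 6 higher and 1, Adam8, lower. Of all genes tested 57.0% were called in this comparison, 28.0% as higher and 28.9% as lower. Groups did not overlap in 8 of the 10 genes, against 72.0% of all genes. The median log2 fold change was 0.68 over the 10 genes and 0.00 over all genes.

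Between the conditioned media, 7 of the 10 genes were called, with 6 higher in PH-CM and 1, Mmp12, lower. Slpi is among the 6, and its call and its lack of overlap again add nothing to the counts, since it passed the filter through PH-CM. Here 27.1% of all genes tested were called, 12.2% as higher and 15.0% as lower. The groups did not overlap in 8 of the 10 genes and in 50.2% of all genes. The median log2 fold change was 0.68 over the 10 genes and -0.01 over all genes. The comparisons share libraries, so the values of each are given side by side below.

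**Figure D1:**
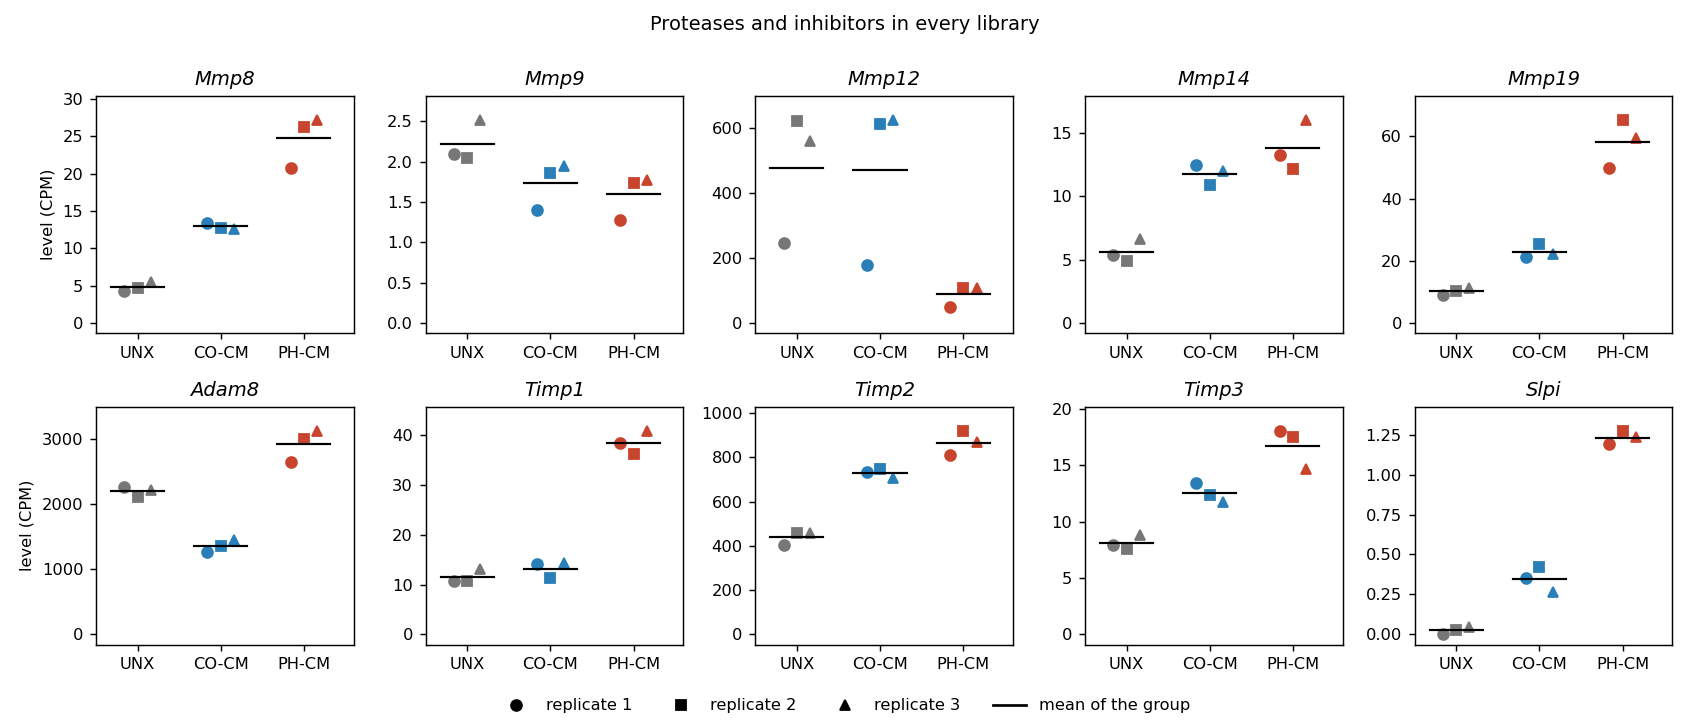
Level in CPM (linear axis) of the 10 genes in each of the 9 libraries, with 1 panel per gene, a symbol per replicate number and a line at the group mean. Mmp12 alone falls with PH-CM by a large margin and shows a low replicate 1 in every group, Adam8 moves in opposite directions under the 2 media, and Timp1 stands apart in PH-CM.

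**Figure D2:**
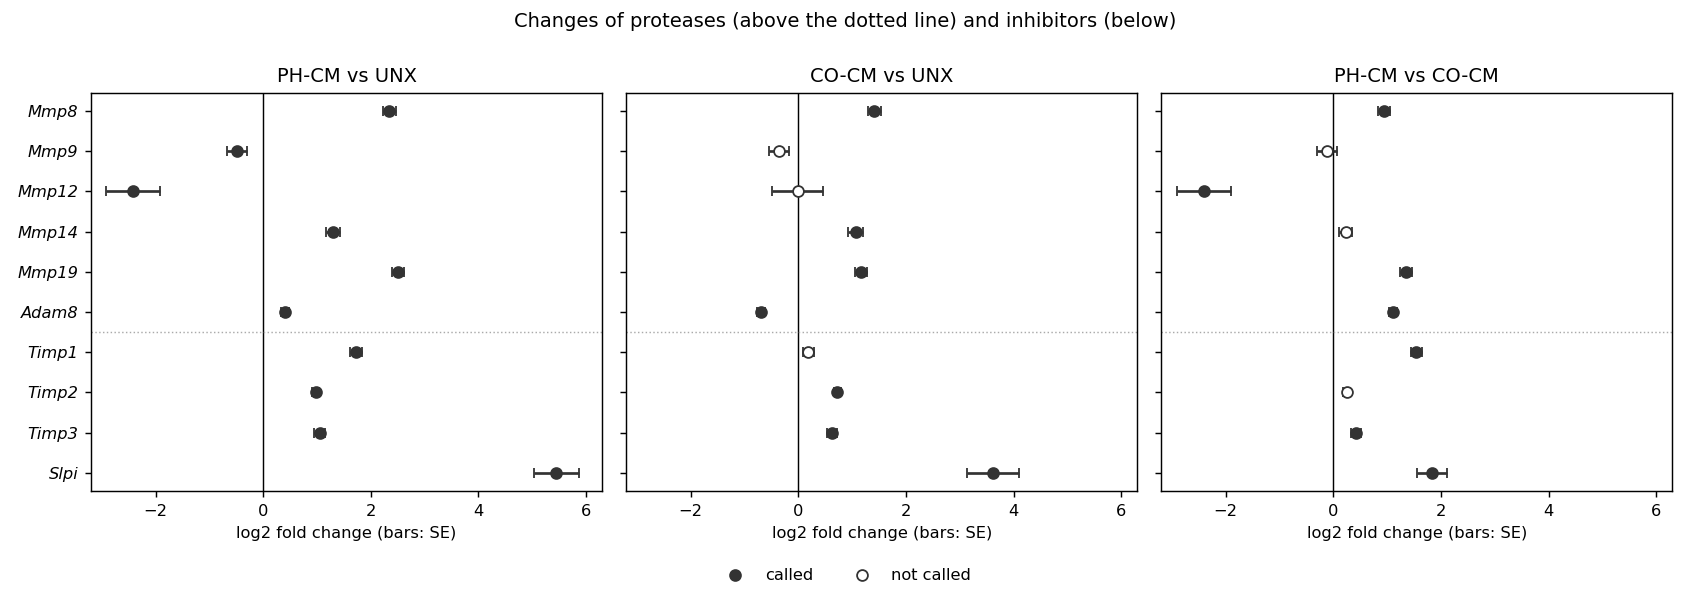
Log2 fold change of each gene in the 3 comparisons (x axis), with bars for 1 SE from the edgeR fit and filled points for called genes. The changes against UNX run from -2.42 for Mmp12 to 5.45 for Slpi under PH-CM, and from -0.70 for Adam8 to 3.62 for Slpi under CO-CM.

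Levels of different genes were compared per length of exon, as RPKM, the read count corrected for exon length and for library depth. In UNX the highest level was that of Adam8, at 486 ± 22.8 RPKM (SD, n = 3), followed by Timp2 at 116 ± 6.45 and Mmp12 at 67.4 ± 27.9. Timp1 came next at 13.4 ± 1.46, and the other 6 genes had mean levels at or below 2.98 RPKM. Timp3 at 1.02 ± 0.0764 and Mmp14 at 0.970 ± 0.144 RPKM were neighbours in this order that did not differ beyond their spread. In CO-CM the order of the first 4 genes was the same, with Adam8 at 285 ± 15.6 RPKM and Timp2 at 183 ± 5.72.

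In PH-CM the order changed in the middle of the range. Adam8 (621 ± 45.2 RPKM) and Timp2 (219 ± 10.7) again came first, but they were followed by Timp1 at 42.8 ± 2.70 and Mmp19 at 16.3 ± 1.98. Mmp12 came after these, at 12.1 ± 4.37 RPKM, and its libraries, from 7.04 to 14.7, overlapped both those of Mmp19 and those of Mmp8, which averaged 10.0 ± 1.29. Slpi, last in UNX at 0.0210 ± 0.0202 RPKM, passed Mmp9 in PH-CM, at 1.03 ± 0.0211 against 0.445 ± 0.0713.

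Mmp8 encodes a collagenase best known from neutrophil granules, and lies on chr9:7558456-7568485 of GRCm38, on the forward strand. Its level was 4.32, 4.69 and 5.52 CPM in UNX replicates 1 to 3. It was 13.4, 12.8 and 12.6 CPM in CO-CM and 20.7, 26.2 and 27.2 CPM in PH-CM. The 3 groups did not overlap, and every PH-CM library was above every CO-CM library. The log2 fold change was 2.34 ± 0.12 (SE; edgeR FDR = 4.33e-08) for PH-CM against UNX and 1.41 ± 0.12 (edgeR FDR = 2.51e-06) for CO-CM against UNX. PH-CM exceeded CO-CM by 1.91-fold (edgeR FDR = 0.000121). The summed neutrophil list was highest in CO-CM, where Mmp8 was intermediate, through Csf3r, while Ltf, Ngp, S100a9 and Cxcr2 were lower on average in both treated groups than in UNX. Prtn3, which was under the filter, rose from UNX to CO-CM to PH-CM as Mmp8 did, at means of 0.0534, 0.121 and 0.230 CPM. The part of such cells in the change of Mmp8 was not tested.

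Mmp9 encodes the gelatinase that cleaves denatured collagen and basement membrane collagen, and lies on chr2:164940780-164955850. It was among the lowest of the 10 genes, with 86 to 216 reads per library. Its level was 2.10, 2.04 and 2.51 CPM in UNX, 1.40, 1.86 and 1.94 CPM in CO-CM, and 1.28, 1.74 and 1.77 CPM in PH-CM. The UNX libraries were above all others, and CO-CM and PH-CM overlapped. PH-CM was 1.39-fold lower than UNX (log2 -0.48 ± 0.19, edgeR FDR = 0.0376). Without UNX replicate 3 this change was -0.38 (edgeR FDR = 0.133) and without PH-CM replicate 1 it was -0.34 (edgeR FDR = 0.134), so the call was lost without either library. For CO-CM against UNX the log2 value was -0.36 ± 0.18 (edgeR FDR = 0.106), and with the replicate number as a block in the fit it was called at the same -0.36 (edgeR FDR = 0.0443). PH-CM against CO-CM gave -0.12 ± 0.19 (edgeR FDR = 0.655).

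Mmp12 encodes macrophage elastase, which degrades elastin, and lies on chr9:7344381-7369499. Its level was 247, 622 and 559 CPM in UNX and 179, 612 and 624 CPM in CO-CM. In PH-CM it was 50.7, 108 and 108 CPM, so that every PH-CM library was below every other library, while UNX and CO-CM overlapped. The log2 fold change was -2.42 ± 0.50 (edgeR FDR = 0.00124) for PH-CM against UNX, which is 5.36-fold lower. Against CO-CM, PH-CM was 5.31-fold lower (log2 -2.41 ± 0.50, edgeR FDR = 0.0036). CO-CM against UNX gave -0.01 ± 0.47 (edgeR FDR = 0.982), and this value took either sign among the alternatives, from -0.33 to 0.38.

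Replicate 1 was the low library for Mmp12 in all 3 groups. The distance of replicate 1 from the mean of replicates 2 and 3 was 1.26 log2 units in UNX, 1.79 in CO-CM and 1.09 in PH-CM. Of the 11950 genes tested, 56, 7 and 28 respectively had a distance at least as large. Between libraries of the same number, PH-CM against UNX gave -2.28, -2.53 and -2.37 for replicates 1 to 3 on the log2 scale, so the fall was of like size in each. With the replicate number as a block the change was -2.40 (edgeR FDR = 1.15e-08), and without replicate 1 of every group it was -2.46 (edgeR FDR = 8.85e-09). The summed level of the dendritic cell list was also lowest in PH-CM, but unlike Mmp12 it was higher on average in CO-CM than in UNX. It was 8.97 to 34.3 CPM in UNX, 19.9 to 64.6 CPM in CO-CM and 5.70 to 8.40 CPM in PH-CM. Most of it was Itgax, at means of 23.7, 47.5 and 6.52 CPM, the integrin subunit CD11c that macrophages can also carry. Itgax was the only one of the 8 genes of the list above the filter, and the others stayed under 1 CPM on average in every group. Zbtb46, Clec9a and Siglech were lowest in PH-CM as well. Ccr7 (means of 0.0410, 0.116 and 0.284 CPM) and Xcr1 (0.0958, 0.0670 and 0.178 CPM) were highest there. Flt3 was lowest in UNX and Cd209a in CO-CM. The part of such cells in the result was not tested.

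Mmp8 and Mmp12 lie in one cluster of 10 MMP genes at chr9:7272514-7699585. Between the end of Mmp12 and the start of Mmp8 are 188957 bases, which hold Mmp3, Mmp1a, Mmp10 and part of Mmp1b. Mmp1b lies on the opposite strand, overlaps the end of Mmp12 and shares 157 exon bases with it. Of these 10 genes, 4 passed the filter. Mmp13, a collagenase next to Mmp12, fell with PH-CM as Mmp12 did and also fell with CO-CM, with 2540, 1230 and 680 reads summed over UNX, CO-CM and PH-CM. Mmp27, next to Mmp8, had 3878, 4514 and 6011 reads. The log2 fold change for PH-CM against UNX was -1.64 for Mmp13 and 0.89 for Mmp27. Thus the called genes at one end of the cluster were lower in PH-CM and those beside Mmp8 were higher. Mmp1a, Mmp1b, Mmp7 and Mmp20 had 0 reads, and Mmp3 and Mmp10 had 22 and 144 reads over all 9 libraries.

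The sequences upstream of Mmp8 and Mmp12 are printed because these genes of one cluster moved in opposite directions with PH-CM. That of Timp1 is printed because it rose with PH-CM and was not called with CO-CM. They are the 250 bases before the first transcribed base in RefSeq (GRCm38.p6), read 5′ to 3′ on the gene's strand, with capitals at matches to 3 motifs searched on both strands. The motifs were TGANTCA for AP-1, AGGAAG for the core bound by PU.1, the macrophage transcription factor, and GGGCGG for a GC box. Mmp12 has 2 start sites in RefSeq, and all windows shown lie on the forward strand.
Mmp12, chr9:7344147-7344396: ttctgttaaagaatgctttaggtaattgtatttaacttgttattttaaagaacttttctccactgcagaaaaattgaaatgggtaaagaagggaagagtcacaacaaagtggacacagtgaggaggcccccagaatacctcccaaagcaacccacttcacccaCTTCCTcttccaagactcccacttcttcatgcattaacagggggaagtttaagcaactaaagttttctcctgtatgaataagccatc
Mmp12, chr9:7347124-7347373: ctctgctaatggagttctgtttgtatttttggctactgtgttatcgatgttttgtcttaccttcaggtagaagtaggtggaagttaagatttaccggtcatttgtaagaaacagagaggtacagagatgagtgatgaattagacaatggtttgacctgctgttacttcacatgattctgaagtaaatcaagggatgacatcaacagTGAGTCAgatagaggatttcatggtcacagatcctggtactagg
Mmp8, chr9:7558179-7558428: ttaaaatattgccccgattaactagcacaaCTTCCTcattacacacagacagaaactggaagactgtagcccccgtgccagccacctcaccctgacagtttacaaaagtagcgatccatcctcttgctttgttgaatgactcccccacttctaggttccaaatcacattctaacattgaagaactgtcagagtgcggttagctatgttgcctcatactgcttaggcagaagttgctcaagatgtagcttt
Timp1, chrX:20869916-20870165: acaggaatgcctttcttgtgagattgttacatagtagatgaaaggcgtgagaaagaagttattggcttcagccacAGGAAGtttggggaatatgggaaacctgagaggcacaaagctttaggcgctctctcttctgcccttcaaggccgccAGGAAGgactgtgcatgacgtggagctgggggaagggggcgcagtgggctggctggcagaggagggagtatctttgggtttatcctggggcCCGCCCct
Windows were given for 8 of the 10 genes, and Mmp9 and Mmp19 had none. A gene was counted if any of its windows matched, whereas the shares over all windows were counted per window. The AP-1 letters were found upstream of 1 of the 8 genes, Mmp12, beginning 44 bases before its second start, and in 6.75% of all 32851 windows. The PU.1 letters were found upstream of 5 of the 8 genes (Mmp8, Mmp12, Mmp14, Timp1 and Timp3) and in 29.5% of all windows. The GC box letters were found upstream of 5 of the 8 genes (Mmp14, Adam8, Timp1, Timp2 and Timp3) and in 32.7% of all windows. The share of G and C was 40.0% and 39.6% in the windows of Mmp12 and 44.8% in that of Mmp8, below the 52.4% median of all windows, and 68.0% and 65.6% in those of Timp2 and Timp3. These matches describe the letters only.

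Mmp14 encodes membrane-type 1 MMP, a collagenase at the cell surface that activates the Mmp2 precursor, and lies on chr14:54431612-54445364. Its level was 5.37, 4.92 and 6.59 CPM in UNX, 12.4, 10.9 and 12.0 CPM in CO-CM, and 13.3, 12.1 and 16.0 CPM in PH-CM. Both treated groups were above all UNX libraries and overlapped each other. It rose 2.45-fold with PH-CM (log2 1.29 ± 0.13, edgeR FDR = 7.11e-06) and 2.09-fold with CO-CM (log2 1.06 ± 0.13, edgeR FDR = 3.9e-05). The difference between the media was 0.23 ± 0.13 on the log2 scale (edgeR FDR = 0.185).

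Mmp19 encodes an MMP that cleaves basement membrane components, and lies on chr10:128790910-128800824. Its level was 9.15, 10.5 and 11.1 CPM in UNX and 21.4, 25.3 and 22.1 CPM in CO-CM. It was 49.8, 65.3 and 59.6 CPM in PH-CM, and no groups overlapped. Its rise with PH-CM, 5.67-fold (log2 2.50 ± 0.11, edgeR FDR = 1.89e-08), was the largest among the 6 protease genes. CO-CM raised it 2.23-fold (edgeR FDR = 6.71e-06), and PH-CM was 2.54-fold above CO-CM (edgeR FDR = 8.37e-06). Its exons share 789 bases with Tmem198b on the opposite strand, which had 5614 reads in all and log2 changes of 0.79 with PH-CM and 0.66 with CO-CM against UNX. The counting options listed hold none for strand or for overlaps, and by default a read that touches exons of both genes is assigned to neither.

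Adam8 encodes a membrane protease that sheds adhesion molecules and other surface proteins of leukocytes, and lies on chr7:139978932-139992562 on the reverse strand. It was the most abundant of the 10 transcripts, with 86253 to 196929 reads per library. Its level was 2255, 2100.4 and 2221 CPM in UNX, 1262, 1351 and 1441 CPM in CO-CM, and 2639, 2996 and 3117 CPM in PH-CM. The groups did not overlap, with CO-CM lowest and PH-CM highest. It was the only one of the 10 genes called in opposite directions under the 2 media, 1.62-fold lower with CO-CM (log2 -0.70 ± 0.075, edgeR FDR = 1.43e-05) and 1.33-fold higher with PH-CM (log2 0.41 ± 0.075, edgeR FDR = 0.000506). The difference between the media was 2.16-fold (edgeR FDR = 2.62e-06). Over the 9 libraries, the genes outside the 10 with the most similar log2 CPM were Slc25a28, Emilin2 and B4galt5, each at a Pearson r of 0.99, and Emilin2 had mean levels of 499, 328 and 693 CPM in UNX, CO-CM and PH-CM. These correlations rest on 9 points in 3 groups.

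Timp1 encodes a secreted inhibitor that also binds the Mmp9 precursor, and lies on chrX:20870166-20874735, within the span of Syn1 on the opposite strand and with 0 exon bases shared. Its level was 10.8, 10.8 and 13.2 CPM in UNX and 14.1, 11.3 and 14.3 CPM in CO-CM, and these groups overlapped. In PH-CM it was 38.4, 36.2 and 40.8 CPM, above all other libraries. It rose 3.32-fold with PH-CM against UNX (log2 1.73 ± 0.11, edgeR FDR = 1.7e-07) and was 2.91-fold above CO-CM (edgeR FDR = 2.88e-06). CO-CM against UNX gave a log2 value of 0.19 ± 0.11 (edgeR FDR = 0.14), which was called without UNX replicate 3 (0.28, edgeR FDR = 0.0441) and without CO-CM replicate 2 (0.29, edgeR FDR = 0.0269).

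Timp2 encodes the inhibitor that links Mmp14 to the Mmp2 precursor at the cell surface, and lies on chr11:118301069-118355740. It was the most abundant TIMP transcript, at 406, 460 and 457 CPM in UNX, 733, 745 and 708 CPM in CO-CM, and 812, 918 and 867 CPM in PH-CM. No groups overlapped. It rose 1.96-fold with PH-CM (log2 0.97 ± 0.064, edgeR FDR = 2.8e-07) and 1.65-fold with CO-CM (log2 0.72 ± 0.064, edgeR FDR = 3.45e-06). PH-CM was 1.19-fold above CO-CM (edgeR FDR = 0.0113), just under the fold required for a call. It was called without CO-CM replicate 2 (log2 0.26, edgeR FDR = 0.0251), without PH-CM replicate 1 (log2 0.30, edgeR FDR = 0.00785), and without replicate 1 of every group (log2 0.30, edgeR FDR = 0.00085). Tbc1d22a, BC021767 and Gpr162 had the most similar log2 CPM over the 9 libraries, each at a Pearson r of 1.00 after rounding.

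Timp3 encodes the TIMP that is bound to the matrix and also inhibits ADAM17, and lies on chr10:86300372-86349506. Its level was 7.90, 7.55 and 8.79 CPM in UNX, 13.4, 12.3 and 11.8 CPM in CO-CM, and 18.0, 17.5 and 14.7 CPM in PH-CM. The groups did not overlap, although PH-CM replicate 3 was near the CO-CM libraries. It rose 2.07-fold with PH-CM (log2 1.05 ± 0.097, edgeR FDR = 3.53e-06) and 1.55-fold with CO-CM (edgeR FDR = 0.000202), and the difference between the media was 1.34-fold (edgeR FDR = 0.00577). Its exons share 1733 bases with Syn3 on the opposite strand, to which 60 reads were assigned in all.

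Slpi encodes a secreted inhibitor of neutrophil elastase and cathepsin G that protects airway surfaces, and lies on chr2:164354070-164389095 on the reverse strand. It was close to the detection limit in UNX, with 0, 2 and 4 reads. It had 24, 28 and 19 reads in CO-CM and 80, 79 and 78 reads in PH-CM, which is 0.351, 0.419 and 0.267 CPM and 1.19, 1.27 and 1.23 CPM. The groups did not overlap. The log2 fold change was 5.45 ± 0.41 (edgeR FDR = 7.66e-07) for PH-CM against UNX and 3.62 ± 0.49 (edgeR FDR = 7.88e-05) for CO-CM against UNX. Both rest on 6 reads in UNX, and over the alternatives they ranged from 4.98 to 6.26 and from 3.13 to 4.42. PH-CM was 3.56-fold above CO-CM (log2 1.83 ± 0.27, edgeR FDR = 0.000473). Because Slpi passed the filter on low counts only through its PH-CM libraries, a higher level there was selected for, and these FDR values are a description. Of the neutrophil list, Csf3r, S100a8, Prtn3 and Retnlg were higher on average in both treated groups than in UNX. Elane, Mpo, Camp, Ltf, Ngp, S100a9, Cxcr2 and Fcnb were lower. Apart from Csf3r and S100a8, these genes were under the filter. The part of such cells in the change of Slpi was not tested.

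To set proteases beside their direct inhibitors, the RPKM of the 5 MMP genes were summed in each library and divided by the sum over the 3 TIMP genes. This ratio compares transcripts and not enzyme activity. It was 0.341, 0.703 and 0.634 in UNX, 0.189, 0.483 and 0.503 in CO-CM, and 0.127, 0.168 and 0.171 in PH-CM. The means were 0.559 ± 0.193 (SD, n = 3), 0.392 ± 0.176 and 0.155 ± 0.0244, with all PH-CM libraries below all others and with overlap between UNX and CO-CM. Between libraries of the same replicate number, CO-CM was below UNX each time. No test was made, since an exact two-sided permutation test of 3 against 3 libraries cannot give a p below 0.1.

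Single genes made up most of each sum. Mmp12 made up 85.3% to 93.2% of the summed MMP level in UNX, 63.7% to 86.0% in CO-CM and 21.7% to 32.4% in PH-CM, and Timp2 made up 82.1% to 93.1% of the summed TIMP level over all libraries. Without Mmp12 the order of the groups turned around, to 0.0508 ± 0.00328 in UNX, 0.0702 ± 0.00169 in CO-CM and 0.11 ± 0.00899 in PH-CM, and no groups overlapped. Without Timp2 the ratio was 5.13 ± 2.00 in UNX, 4.97 ± 2.46 in CO-CM and 0.921 ± 0.194 in PH-CM, with PH-CM again lowest. UNX and CO-CM overlapped, and in replicate 3 CO-CM was above UNX, at 5.72 against 5.32. Both parts of the ratio moved. The summed MMP level was 41.8, 94.2 and 86.1 RPKM in UNX and 32.4, 45.7 and 45.4 RPKM in PH-CM, and the summed TIMP level was 122.6, 134 and 136 RPKM in UNX and 255, 273 and 265 RPKM in PH-CM.

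**Figure D3:**
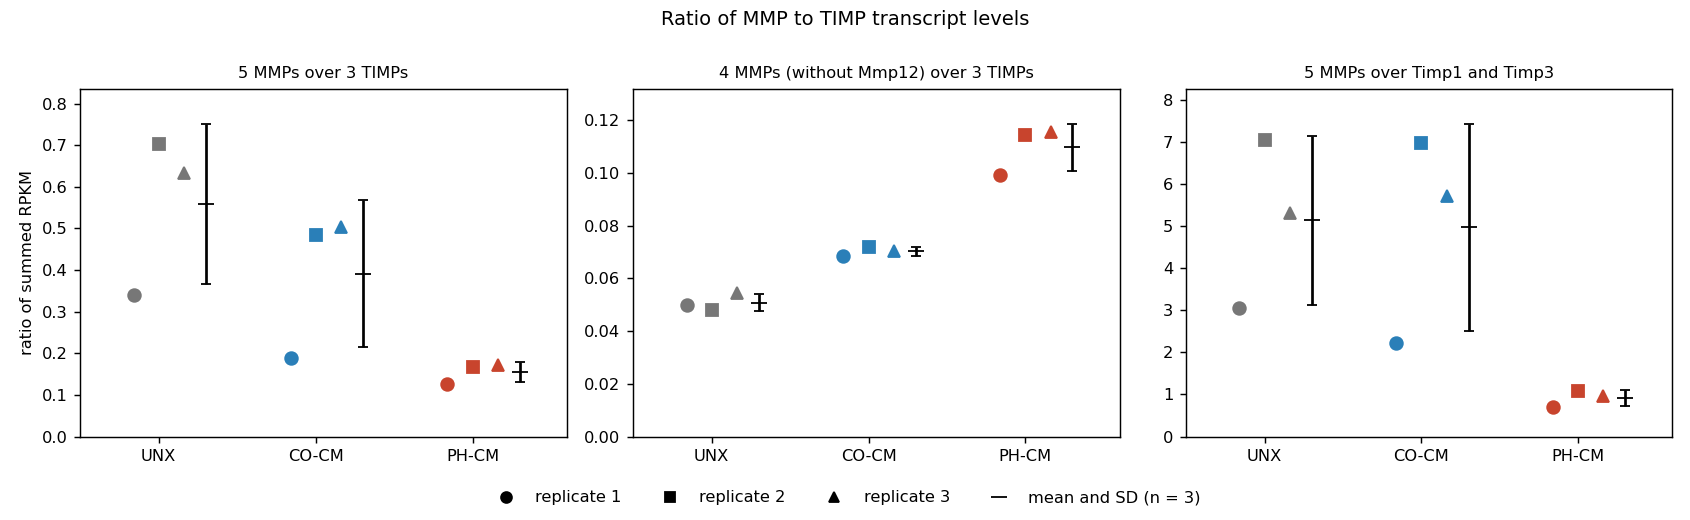
Ratio of summed MMP to summed TIMP transcript levels (RPKM, y axis from 0, a separate scale per panel) in each library, with the group mean and SD (n = 3) beside the points. PH-CM is lowest with all 5 MMP genes (mean 0.155) and highest once Mmp12 is left out (mean 0.11), while leaving out Timp2 keeps PH-CM lowest (mean 0.921).

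Among known pairs of protease and inhibitor, the level of Mmp9 relative to Timp1 in RPKM was 0.0474 to 0.0487 in UNX, 0.0251 to 0.0412 in CO-CM and 0.00835 to 0.0121 in PH-CM, with no overlap. That of Mmp14 relative to Timp2 was 0.699% to 0.943% in UNX, 0.955% to 1.11% in CO-CM and 0.862% to 1.21% in PH-CM. Here UNX and PH-CM overlapped, both genes having risen. Between libraries of the same replicate number PH-CM was above UNX, at 1.07% against 0.864%, 0.862% against 0.699% and 1.21% against 0.943%.

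Of the 18 MMP genes outside the 10, 4 passed the filter, with 2 higher and 2 lower under PH-CM against UNX (31.3% and 31.7% of all genes tested). Mmp2, a gelatinase activated through Mmp14 and Timp2, rose from 3.45 ± 0.51 CPM in UNX to 7.32 ± 1.4 CPM in PH-CM (log2 1.09 ± 0.16, edgeR FDR = 0.000119) and to 5.43 ± 0.68 CPM in CO-CM (edgeR FDR = 0.00413). Mmp28 fell from 1.44 ± 0.37 CPM in UNX to 0.238 ± 0.097 CPM in PH-CM (edgeR FDR = 2.25e-05) and was 1.46 ± 0.17 CPM in CO-CM, and it passed the filter only through UNX and CO-CM, so a lower level in PH-CM was selected for. Mmp13 fell under both media, from 11.0 ± 2.5 CPM to 3.54 ± 0.40 CPM in PH-CM (edgeR FDR = 0.000165) and 5.94 ± 2.0 CPM in CO-CM (edgeR FDR = 0.00752). The median log2 fold change of these 4 genes was -0.38 for PH-CM and 0.19 for CO-CM against UNX, and -0.16 between the media.

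Of 19 ADAM and ADAMTS genes, 13 passed the filter. PH-CM raised 7 and lowered 1 against UNX, CO-CM raised 6 and lowered 1, and between the media 4 were higher and 3 lower in PH-CM. Against UNX the called share was near that over all genes, 63.0% with PH-CM and 57.0% with CO-CM. Between the media 12.2% of all genes tested were higher and 15.0% lower in PH-CM. Adam12 rose from 0.640 ± 0.23 CPM to 2.36 ± 0.67 CPM with PH-CM (log2 1.90 ± 0.32, edgeR FDR = 0.000328) and to 1.26 ± 0.40 CPM with CO-CM (edgeR FDR = 0.0209). Adam33 rose under both media, from 3.05 ± 0.39 CPM in UNX to 8.63 ± 0.71 in PH-CM (edgeR FDR = 1.38e-06) and 7.69 ± 0.81 in CO-CM (edgeR FDR = 4.59e-06). Adam19 rose most with CO-CM, from 5.70 ± 1.4 to 17.1 ± 3.9 CPM (edgeR FDR = 6.57e-05), and Adamts5, an aggrecanase, was 0.690, 0.655 and 1.90 CPM on average in UNX, CO-CM and PH-CM. Adamts5 passed the filter only through PH-CM, so its call there is no independent result. Adamts6, at means of 0.769, 1.01 and 2.08 CPM in UNX, CO-CM and PH-CM, also passed it through its level in PH-CM. Its calls as higher there are no independent results. Adam12 had no UNX library above 1 CPM, so a higher level under the media was selected for. Its call against UNX is no independent result either. The median log2 fold change of the 13 genes was 0.47, 0.22 and 0.17 in the 3 comparisons.

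The cathepsins, lysosomal proteases that macrophages can also secrete, were all detected. Of 13 genes, 11 rose and 1 fell with PH-CM, and 12 rose and 1 fell with CO-CM against UNX, where 31.3% and 28.0% of all genes tested rose. Between the media 2 were higher and 4 lower in PH-CM, against 12.2% and 15.0% of all genes. Ctse, at means of 0.723, 2.29 and 0.875 CPM in UNX, CO-CM and PH-CM, passed the filter through its level in CO-CM. Its higher level there was selected for, so its calls against UNX and PH-CM add nothing to these counts. Ctsc, which activates granule serine proteases, was the one that fell, by 0.92 with PH-CM and 1.03 with CO-CM on the log2 scale. Ctsl rose from 1422 ± 68.0 CPM to 5245 ± 447 CPM with PH-CM (log2 1.88 ± 0.093, edgeR FDR = 3.41e-08) and was 1.14 higher on the log2 scale than in CO-CM (edgeR FDR = 7.97e-06). Ctsk, a collagenolytic cathepsin, rose from 20.3 ± 6.1 to 55.4 ± 9.8 CPM with PH-CM (edgeR FDR = 0.0002). It also rose to 42.7 ± 9.0 CPM with CO-CM (edgeR FDR = 0.00175), and was not called between the media (edgeR FDR = 0.216). Ctsd was lower in PH-CM than in CO-CM, at 8189.8 ± 95.7 against 11684 ± 194 CPM (edgeR FDR = 0.000154). The median log2 fold change of the 13 genes was 0.67 with PH-CM and 0.93 with CO-CM against UNX, and -0.16 between the media.

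Of 9 genes for granule serine proteases and plasminogen activation, 2 passed the filter, Plau and Plaur, and both fell under both media, as did 31.7% of all genes with PH-CM and 28.9% with CO-CM. Plau, the urokinase that turns plasminogen into plasmin, fell from 809 ± 109 CPM in UNX to 120 ± 53 CPM in CO-CM (log2 -2.75 ± 0.28, edgeR FDR = 8.69e-06) and 32.3 ± 2.9 CPM in PH-CM (log2 -4.65 ± 0.30, edgeR FDR = 2.51e-07). Plaur, its receptor, fell by 0.69 with PH-CM and 1.07 with CO-CM. Elane, Prtn3 and Ctsg, the serine proteases of neutrophil granules, had 24, 81 and 65 reads in all.

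Of 27 other inhibitors, 13 passed the filter, with 6 higher and 3 lower under PH-CM and 4 higher and 1 lower under CO-CM against UNX. The called share was near the 63.0% of all genes with PH-CM and below the 57.0% with CO-CM. Serpinb1a, an inhibitor of neutrophil serine proteases, fell from 5.92 ± 0.71 CPM to 0.385 ± 0.20 CPM with PH-CM (log2 -3.95 ± 0.44, edgeR FDR = 1.35e-05) and to 1.37 ± 0.79 CPM with CO-CM (edgeR FDR = 0.000479). Serpinb1a passed the filter only through its level in UNX, so a lower level under the media was selected for. Reck, at means of 1.02, 1.06 and 0.454 CPM in UNX, CO-CM and PH-CM, passed it through UNX and CO-CM. The lower level of Reck in PH-CM, which is among the counts, was selected for as well. Serpinb2, an inhibitor of plasminogen activators, rose from 1.65 ± 0.16 to 5.53 ± 0.45 CPM with PH-CM (edgeR FDR = 2.25e-05), and was 1.40 ± 0.45 CPM in CO-CM. Cst3, the secreted cystatin that blocks cathepsins, rose from 602 ± 53 to 950 ± 94 CPM with CO-CM (edgeR FDR = 0.000165). It also rose to 815 ± 87 CPM with PH-CM (edgeR FDR = 0.00225), and was not called between the media (edgeR FDR = 0.103). Between the media 4 of the 13 were higher and 5 lower in PH-CM, beside 12.2% and 15.0% of all genes tested. The median log2 fold change was 0.21, 0.16 and -0.22 in the 3 comparisons.

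Of 14 genes that activate, dock or clear these proteases, 11 passed the filter. PH-CM raised 8 and lowered 2 against UNX, and CO-CM raised 5 and lowered 0 by the edgeR call, beside 63.0% and 57.0% of all genes called. Furin, the convertase that removes the propeptide of Mmp14, rose from 138 ± 1.7 CPM to 275 ± 3.7 CPM with PH-CM (edgeR FDR = 1.51e-08) and 284 ± 12 CPM with CO-CM (edgeR FDR = 2.11e-08). Sdc1, a heparan sulfate proteoglycan that can hold MMPs at the cell surface, rose from 22.1 ± 4.6 to 168 ± 24 CPM with PH-CM (log2 2.92 ± 0.22, edgeR FDR = 8.32e-07). With CO-CM it rose to 67.3 ± 19 CPM (edgeR FDR = 7.31e-05). Itgb3 rose chiefly with CO-CM, to 57.1 ± 5.5 CPM against 12.8 ± 1.6 in UNX and 17.8 ± 0.73 in PH-CM. Between the media 3 were higher and 2 lower in PH-CM, beside 12.2% and 15.0% of all genes tested. The median log2 fold change was 0.32, 0.25 and 0.07 in the 3 comparisons.

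**Figure D4:**
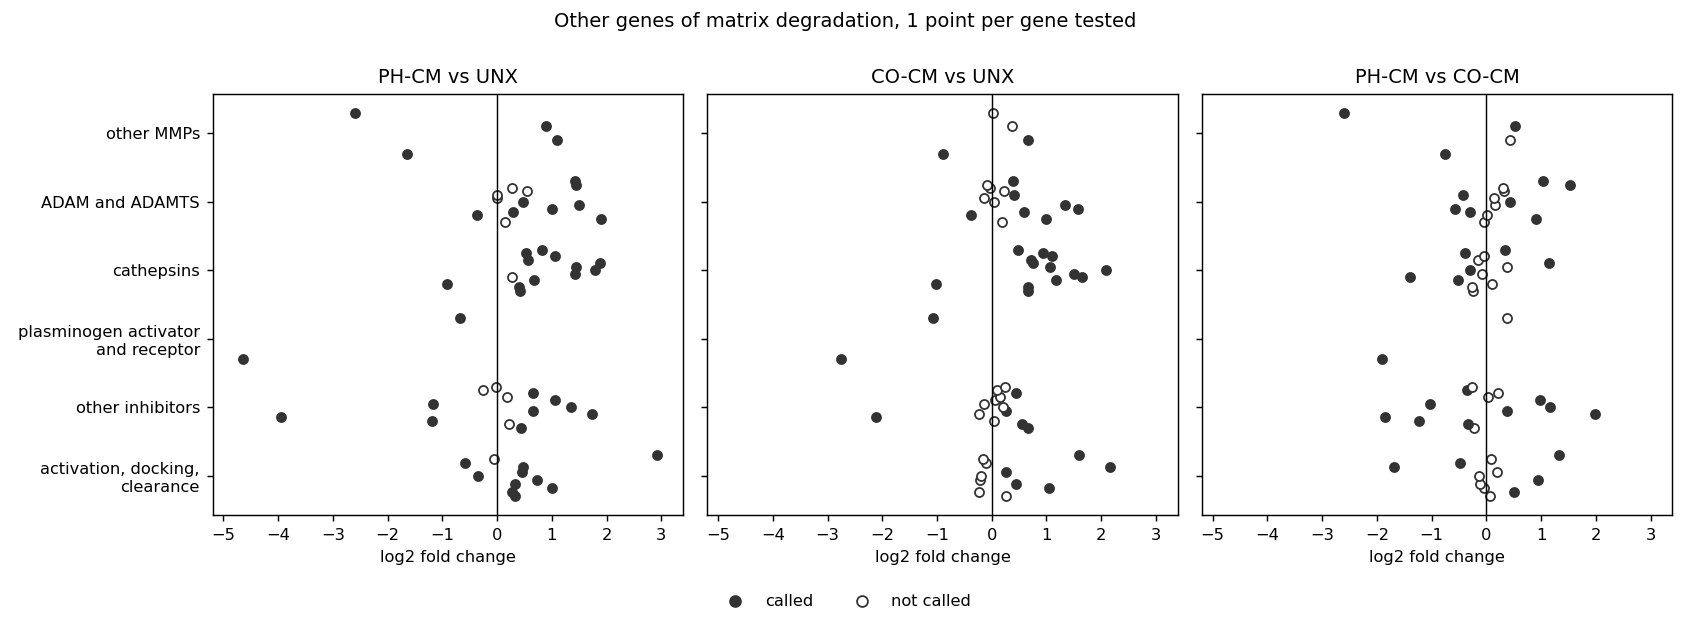
Log2 fold change (x axis) of every tested gene of 6 lists of matrix degradation that hold none of the 10 genes, with filled points for called genes. The cathepsins lie mostly to the right in both comparisons with UNX (11 and 12 of 13 higher). The 12 include Ctse, which passed the filter through CO-CM. Plau is the point farthest to the left (-4.65 with PH-CM).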

How the data were processed

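RNA was sequenced from 9 libraries of BMDMs, assigned to UNX, CO-CM and PH-CM and to replicate numbers from the labels. After quality control (FastQC) and trimming (AfterQC), the authors aligned the reads to the GRCm38 genome by STAR and assigned them to genes by featureCounts 1.6.2. They deposited raw counts, which are whole reads per gene without normalization, and RPKM values, which are those counts scaled to exon length and library size. The options listed for featureCounts hold none for strand, read pairs or overlapping genes, so its defaults were taken to apply (unstranded, each mate on its own, reads on exons of more than 1 gene unassigned). The tables of the authors' own comparisons hold log2 fold changes, p-values and FDR from their edgeR tests and were not used.

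The counts were fitted with the quasi-likelihood model of edgeR 4.0.16 under R 4.3.3. The model held all 9 libraries, 1 mean for each group and TMM scaling, after the filter of more than 1 CPM in at least 3 libraries. CPM values use the TMM-scaled library sizes. P-values were adjusted by Benjamini-Hochberg over 11950 genes. The SE is the log2 fold change divided by the square root of the F statistic. The fit was tested on simulated counts with known changes. No 2 libraries of a group agreed within sampling noise, the chi-square per gene being at least 10.6.

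The 10 genes, the lists and the motifs were chosen with earlier results of these data known. Every one of the 10 was described. In each list, up to 3 called genes per comparison were eligible to be named. They were those with the largest change among genes with a mean of at least 1 CPM and no overlap between groups. Ctsc, the only cathepsin that fell against UNX, Reck, and genes at or near 0 reads were named beyond that rule after their values were seen. Coordinates and overlaps come from GENCODE vM21 and upstream sequences from RefSeq, both on GRCm38.

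Libraries with the same replicate number deviated together from their group means, with r from 0.276 to 0.484 in 9 pairs against -0.376 to 0.0423 in 18 pairs with different numbers. The numbers were therefore taken to pair the libraries, a pairing that rests on these correlations and is not stated in the labels. The main fit held no term for this pairing, so its SE and FDR values do not use it. Only the replicate block among the alternatives does. The alternatives were the edgeR exact test and the DESeq2 1.42.0 Wald test, DESeq2, upper-quartile or no scaling factors, 2 other filters, the replicate block, a separate fit for each pair of groups, a fold of at least 2, and each library left out. Counts divided by 2, and leaving out replicate 1 of every group, were added after seeing the data.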

Additional observations from a re-analysis of the deposited data

How the results depend on the processing

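The changes of the 10 genes were recomputed 600 times in all over 30 comparisons of gene and group. Of these values, 584 kept both direction and call, 3 lost the call, 7 gained it and 6 changed sign, and 24 of the 30 comparisons kept direction and call under every alternative other than the larger fold below. The sign changed for 2 differences that were never called. Mmp12 in CO-CM against UNX became positive with upper-quartile factors (0.052), and with replicate 1 of every group left out (0.056), and with single libraries left out it ranged from -0.33 to 0.38, including 0.22 without UNX replicate 2, 0.11 without UNX replicate 3 and 0.38 without CO-CM replicate 1. With single libraries left out, Mmp9 in PH-CM against CO-CM ranged from -0.25 to 0.025, the latter without PH-CM replicate 1. Mmp9 in CO-CM against UNX was called with library size alone (-0.43, edgeR FDR = 0.0499). Mmp9 in PH-CM against UNX was not called without replicate 1 of every group (-0.38, edgeR FDR = 0.0915). The causes were not tested. With the replicate number as a block, 10, 8 and 7 of the 10 genes were called in PH-CM against UNX, CO-CM against UNX and PH-CM against CO-CM. Of all 11950 genes, 7714, 7037 and 3632 were called in the same fit. Among the 10 genes the pairing changed no call other than that of Mmp9. With a fold of at least 2 in place of 1.2, fewer genes passed by construction, 2153, 1655 and 612 of all genes, and 7, 4 and 5 of the 10 in PH-CM against UNX, CO-CM against UNX and PH-CM against CO-CM. The ratio of MMP to TIMP levels was 0.0508, 0.0702 and 0.11 in UNX, CO-CM and PH-CM without Mmp12, 5.13, 4.97 and 0.921 without Timp2, and 1.07, 0.692 and 0.202 from summed CPM. Depth limits Slpi, with 6 reads in UNX, and Mmp9, with 86 to 216 reads per library.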
